A study of Homo sapiens with 30 samples.

Results

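The genes described here are the expressed ZNF genes, human genes named for the zinc finger proteins they encode. A gene was taken when its symbol was ZNF followed by digits and at most 1 final capital letter and its mean over all 30 libraries was at least 10 CPM (counts scaled to the total of the library). Of 557 genes with such a symbol, in a table of 61487 genes, 261 reached that level and 2 had no count in any library. The genes were thus chosen by their mean level in these libraries, which is given as a description only. Just inside the limit stood ZNF16 at 10.1, ZNF185 at 10.3 and ZNF595 at 10.5, and just outside it ZNF250 at 9.92, ZNF669 at 9.91 and ZNF782 at 9.77. All 261 passed the low-count filter of the test, so no gene of the set was lost before testing.

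Classical zinc fingers are short loops held by a zinc ion between a pair of cysteines and a pair of histidines, and a row of them lets a protein read a stretch of DNA. Many ZNF proteins also carry a KRAB box, which recruits the corepressor TRIM28 and through it the histone methyltransferase SETDB1 and HP1 proteins, so that the bound DNA, often a retroelement, is silenced. KRAB genes arose by repeated duplication and lie in clusters of close relatives, many of them on chromosome 19. Other ZNF proteins are transcription factors without a KRAB box, or bind RNA, ribosomes or the mitotic spindle.

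RNA was measured in eHAP FNLS cells. This haploid human line descends from HAP1 and expresses FNLS, a cytosine base editor. All 5 genotypes share that background: control cells with a non-targeting guide RNA, and cells with PHF5A 2xTL (an insertion of 6 nt), SF3B1 T1080I, SUGP1 E554K or SUGP1 G603N. All were given pladienolide B (PB) at 2 nM, or DMSO as its solvent, over 3 h, with 3 libraries per genotype and treatment. PB blocks splicing by occupying a pocket of the SF3b complex that SF3B1 and PHF5A form, and SUGP1 is a splicing factor that acts with SF3B1. Each mutant genotype was represented by 3 monoclonal lines, and a line carries the same number in DMSO and PB. Control was 1 line grown in 3 replicates, so its libraries differ as cultures do, whereas those of a mutant differ as clones do. The test takes 1 spread per gene from all 30 libraries, so every p-value below mixes the 2 kinds of spread.

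The libraries held 3.16e+07 to 7.50e+07 counts, of which the ZNF genes took 0.843% to 1.01%. The lowest value of a ZNF gene in any library was 7.12 counts. Levels below are CPM with library totals scaled by the TMM method, and fold changes are log2 values with their standard error (SE) from edgeR. A gene is called when its Benjamini-Hochberg adjusted p over all 31495 tested genes is under 0.05. Libraries of the SUGP1 mutants stood apart in their spread: the median SD of a ZNF gene's log2 CPM within a group was 0.19 to 0.23 in the 4 SUGP1 groups and 0.10 to 0.16 in the 6 others. The largest departures were in the third line of each SUGP1 genotype, and the main counts are also given without those lines. The mitochondrial share of counts was highest in SUGP1 E554K line 3, at 15.02% with DMSO and 17.9% with PB against a median of 11.3%, and PB line 2 of that genotype had 14.3%. The edits change protein sequence and gene counts do not check them. SUGP1 itself had group means of 43.7 to 89.1 CPM, PHF5A 52.2 to 71.3 CPM and SF3B1 426 to 550 CPM. Of 6 tested haematopoietic markers, PTPRC, CD34, ITGAM, GATA1 and MPO did not exceed 0.835 CPM in any library. VIM, 1 of 6 tested mesenchymal markers, averaged 281 CPM. Levels of the other tested markers are not given here, so these do not assign a cell type.

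Among the 261 genes, 257 are protein coding and 4 are transcribed pseudogenes, by GENCODE release 29. A KRAB box was found in 153 proteins, and 104 coding genes had none. The median KRAB protein had 12 classical fingers and the median other protein 7. Chromosome 19 holds 100 of the genes (38.3%), among them 81 of the 153 KRAB genes (52.9%) and 19 of the 104 others. KRAB genes were expressed at a lower level, with a median of 19.7 by the measure that chose them against 32.6 for the others. Per kilobase of exon the medians were 3.56 and 6.04 CPM.

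The genes of highest mean level were ZNF664 (258 CPM), ZNF207 (237 CPM), ZNF711 (210 CPM), ZNF146 (192 CPM) and ZNF638 (170 CPM), none of them with a KRAB box. Per kilobase of exon the order was ZNF146 at 46.4, ZNF711 at 41.7 and ZNF664 at 40.7, with ZNF207 at 15.01 and ZNF638 at 13.6 CPM. ZNF207 encodes a spindle and kinetochore protein, ZNF146 a protein made almost wholly of fingers, and ZNF711 an X-linked factor that works with the histone demethylase PHF8. ZNF711 differed between lines. In SUGP1 E554K its DMSO libraries had 286, 163 and 325 CPM and the PB libraries of the same lines 208, 180 and 309 CPM, against 177, 200 and 193 CPM in control DMSO. Line 2 was the low one and line 3 the high one in both treatments.

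The repeated origin of the family shows in its coding sequence. Below, 1 finger with the linker that follows it is printed from each of 5 KRAB genes that the results turn on: ZNF91, ZNF431 and ZNF100 for their loss in single lines, and ZNF587B and ZNF695 for their change with PB. The letters are from GENCODE release 29 transcripts on hg38. Each runs from the codon of the first cysteine, and the capitals mark the codons of the conserved linker between fingers.
ZNF91: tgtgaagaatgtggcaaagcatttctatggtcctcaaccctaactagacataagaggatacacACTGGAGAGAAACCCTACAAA
ZNF431: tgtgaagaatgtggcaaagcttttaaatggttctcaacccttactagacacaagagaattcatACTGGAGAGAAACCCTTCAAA
ZNF100: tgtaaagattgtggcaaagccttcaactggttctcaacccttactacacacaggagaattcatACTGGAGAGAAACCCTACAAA
ZNF587B: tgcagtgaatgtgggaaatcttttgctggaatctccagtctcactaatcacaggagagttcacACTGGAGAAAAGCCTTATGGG
ZNF695: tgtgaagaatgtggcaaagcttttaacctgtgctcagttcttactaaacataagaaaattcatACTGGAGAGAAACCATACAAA
They lie at chr19:23362094-23362177 (ZNF91, minus strand), chr19:21183003-21183086 (ZNF431, plus), chr19:21727526-21727609 (ZNF100, minus), chr19:57842412-57842495 (ZNF587B, plus) and chr1:246987624-246987707 (ZNF695, minus), each within 1 coding exon. The fingers of ZNF431 and ZNF100 were identical at 76 of 84 bases (90.5%), those of ZNF91 and ZNF431 at 74 (88.1%) and those of ZNF91 and ZNF100 at 69 (82.1%). That of ZNF695, on chromosome 1, matched ZNF431 at 85.7%, ZNF100 at 82.1% and ZNF91 at 79.8%. ZNF587B matched the other 4 at 61.9% to 65.5%.

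Such likeness bears on counting. The deposited values are estimates, and 86.8% of those of these genes were not whole numbers (tolerance 1e-09). Even so, 200 of the 261 genes shared no stretch of 150 bases, the length of 1 read, with the transcripts of any other gene, and 15 shared at least 10% of theirs. Overlap with neighbours was more common. In GENCODE, 146 of the genes overlapped another tested gene, 116 of them on the opposite strand, and no source used here says whether counting was by strand.

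In control cells, PB raised 17 ZNF genes and lowered 24, within 3 h. These 41 genes are 15.7% of the set, against 4.3% of all 31495 tested genes and 8.9% of the 9853 tested genes that met the same level. Calls in the upward direction took 6.51% of the ZNF genes against 1.13% of the genes of that level, and downward calls 9.20% against 7.77%. The median log2 fold change over all 261 genes was 0.01, beside 0.01 over all tested genes. In all 41 the 3 PB values lay outside the range of the 3 DMSO values. The 41 were chosen by p-values from the same libraries, so this separation is no separate evidence. In bulk RNA such a change cannot tell fewer expressing cells from less RNA per cell.

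By class, the difference between KRAB genes and the others was not tested. Of the 153 KRAB genes 14 rose and 8 fell, while of the 104 other coding genes 3 rose and 15 fell, and 1 pseudogene, ZNF252P, fell. The rises were small, from 0.46 to 1.06 with a median of 0.69, and the falls ran from -0.45 to -1.31 with a median of -0.61. With the replicate number as a block, which pairs a PB library with the DMSO library of its number, 67 genes were called (32 higher, 35 lower) beside 9.34% of all tested genes, 23 KRAB genes up and 17 down against 9 and 17 of the others. That pairing is uncertain in control, where replicate 2 was not most like its own number. Leaving out DMSO replicate 1 or 2 or PB replicate 1 or 3 left 26, 19, 23 and 20 calls, with no share of all tested genes given here.

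**Figure D1:**
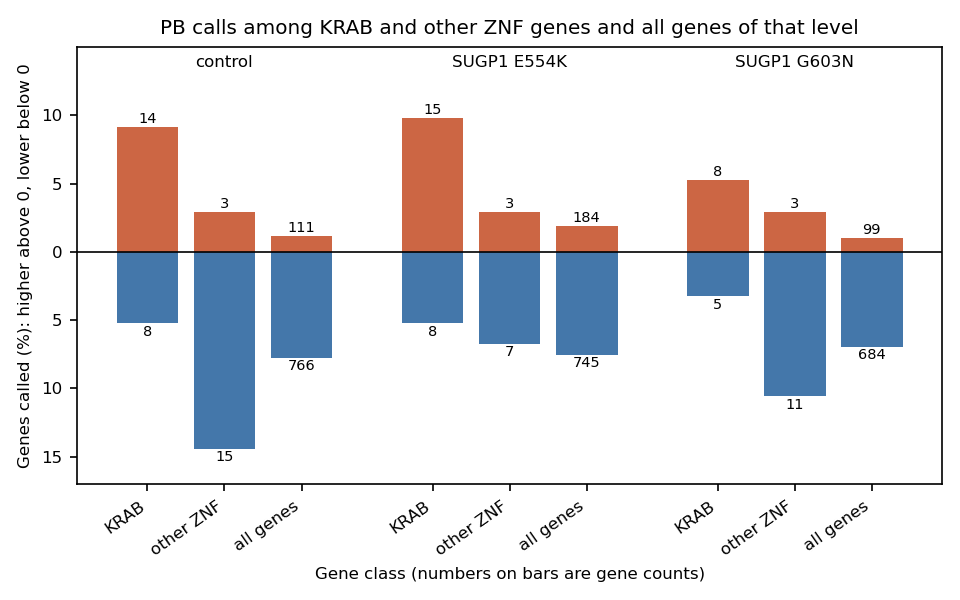
Share of KRAB ZNF genes (153), other coding ZNF genes (104) and all tested genes of the same level (9853) called higher (above 0) or lower (below 0) with PB against DMSO, in percent, for control, SUGP1 E554K and SUGP1 G603N. Numbers on the bars are gene counts, and in control 14 KRAB genes were higher and 8 lower against 3 and 15 of the other ZNF genes.

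ZNF587B, a KRAB gene near the end of chromosome 19 (ENSG00000269343, chr19:57819741-57846238, hg38), had the largest fall. Its control DMSO libraries had 28.7, 21.9 and 15.5 CPM and its PB libraries 9.89, 9.83 and 7.01 CPM. Every PB value was below every DMSO value, a log2 fold change of -1.31 (SE 0.23, adjusted p = 6.73e-04). The gene overlaps ZNF586 and FKBP1AP1, and 12.8% of its 150-base stretches occur in another gene. Its relative ZNF587 was at 40.7, 47.8 and 36.6 CPM in DMSO and 47.3, 50.4 and 44.8 CPM in PB, a log2 fold change of 0.19 (SE 0.20) that did not pass. ZNF417, another close relative, stood at -0.08 (SE 0.16) and did not pass either. The profile of ZNF587B over the 10 group means was most like those of ZNF271P (Pearson r = 0.97), ZNF518A (0.96) and ZNF638 (0.94), a description over groups that share the PB and DMSO treatments.

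ZNF382, a KRAB repressor on the same chromosome arm (chr19:36604817-36634113), was at 16.3, 16.3 and 15.2 CPM in DMSO and at 6.86, 6.72 and 8.82 CPM in PB. The groups were far apart relative to their spread, with a log2 fold change of -1.09 (SE 0.25, adjusted p = 0.00773). ZNF595, which stands just inside the level limit, fell by 1.04 (SE 0.21), from 10.9, 11.8 and 13.4 CPM to 5.12, 6.70 and 5.69 CPM. ZNF81 on the X chromosome fell by 0.76 (SE 0.17). These are the KRAB genes with the largest falls, and ZNF595 is the only one of the 4 that overlaps no other tested gene.

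Among the genes without a KRAB box, ZNF346, whose protein binds double-stranded RNA, went from 22.6, 29.6 and 32.9 CPM to 14.9, 14.8 and 17.4 CPM. Its log2 fold change was -0.85 (SE 0.14, adjusted p = 3.94e-04). ZNF839 changed by -0.84 (SE 0.16) and ZNF518A by -0.80 (SE 0.18). Several abundant genes with known roles fell by less. ZNF638, which takes part in silencing of retroviral DNA with the HUSH complex, fell from 196, 206 and 168 CPM to 142, 144 and 126 CPM (-0.47, SE 0.11). ZNF644, a partner of the histone methyltransferases EHMT1 and EHMT2, fell by 0.60 (SE 0.16), and ZNF598, a ubiquitin ligase that marks collided ribosomes, by 0.53 (SE 0.15).

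The largest rise was in ZNF557, a KRAB gene on chromosome 19 that overlaps no other tested gene. Its DMSO values were 17.2, 17.6 and 10.8 CPM and its PB values 33.2, 30.01 and 32.04 CPM (1.06, SE 0.23, adjusted p = 0.00461). All PB values stood well above all DMSO values. ZNF695 on chromosome 1 rose from 8.49, 9.03 and 8.48 CPM to 18.1, 16.6 and 15.6 CPM (0.95, SE 0.21), although 10.7% of its 150-base stretches also belong to a readthrough transcript with its neighbour, ZNF670-ZNF695. ZNF343 on chromosome 20, with no overlapping gene, rose from 16.2, 19.6 and 23.2 CPM to 31.5, 34.5 and 36.1 CPM (0.79, SE 0.15).

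ZNF646, a gene of 30 fingers and no KRAB box, rose from 30.2, 30.2 and 34.98 CPM to 51.7, 53.4 and 60.2 CPM, with the lowest adjusted p of the set (0.79, SE 0.13, adjusted p = 2.67e-04). ZNF263, a factor with both a SCAN and a KRAB domain, rose from 38.5, 42.1 and 48.9 CPM to 62.5, 75.3 and 71.5 CPM (0.69, SE 0.13). ZNF3 rose from 47.9, 46.4 and 49.9 CPM to 76.5, 76.1 and 84.1 CPM (0.72, SE 0.13). The narrow spread of these 3 abundant genes leaves a clear gap between treatments. ZNF473, whose protein serves the processing of histone mRNA ends, rose by 0.62 (SE 0.16). ZNF776 (0.72, adjusted p = 0.0349) lost its call when any 1 of the 6 libraries was left out, whereas ZNF557, ZNF695, ZNF646, ZNF343, ZNF324, ZNF3, ZNF263, ZNF587B, ZNF382, ZNF595, ZNF346 and ZNF839 kept theirs under all 11 alternatives. Of the 41 called genes 26 overlapped another tested gene, 18 on the opposite strand, among them ZNF646 (PRSS53), ZNF3 (ZSCAN21) and ZNF324 (ZNF446).

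**Figure D2:**
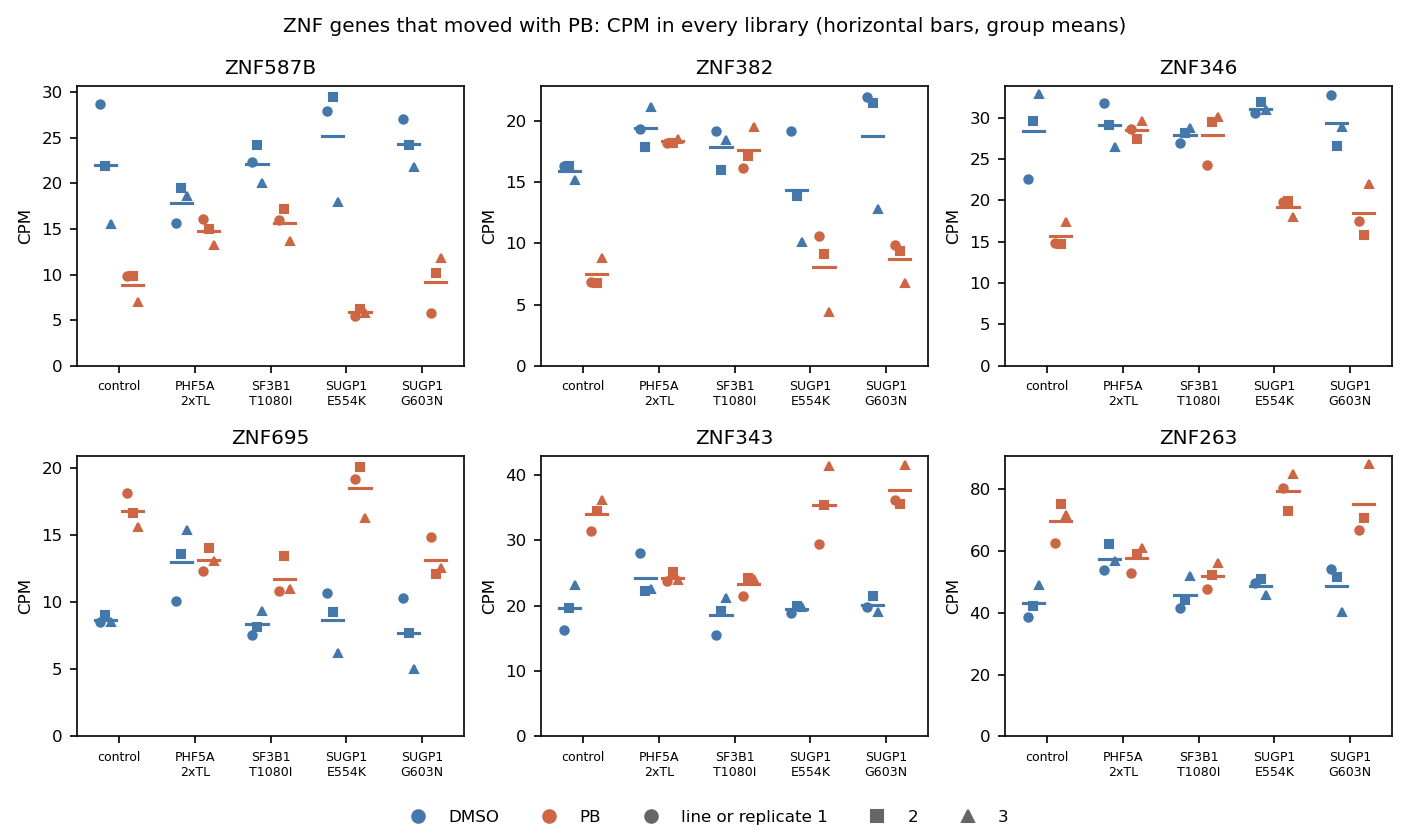
CPM of 3 ZNF genes that fell (ZNF587B, ZNF382, ZNF346) and 3 that rose (ZNF695, ZNF343, ZNF263) with PB in every library, by genotype, with DMSO in blue, PB in orange, the marker shape giving the line or replicate number and a bar the group mean. In control the PB values of ZNF346 were 14.8 to 17.4 CPM against 22.6 to 32.9 CPM in DMSO, while in PHF5A 2xTL its PB values were 27.5 to 29.6 CPM against 26.5 to 31.8 CPM.

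Of 22 tested genes for the corepressors that KRAB proteins recruit and for the HUSH complex, 2 were called in control, a share near the 8.9% of all genes of the level limit. Both were lower: TASOR, a HUSH subunit (-0.87, SE 0.20, adjusted p = 0.0102), and UHRF1, which reads DNA methylation after replication (-0.54, SE 0.13, adjusted p = 0.0162). TRIM28 was at 458 to 647 CPM over all libraries and changed by 0.10 (SE 0.11), and SETDB1 changed by -0.25 (SE 0.12), neither passing. The median of the 22 was -0.10, and -0.19 in SUGP1 E554K and -0.20 in SUGP1 G603N. Both TASOR and UHRF1 were also called lower in SUGP1 E554K (-1.08 and -0.60) and SUGP1 G603N (-0.96 and -0.60), where ATF7IP, a partner of SETDB1, was called lower too (-0.57, SE 0.15).

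Of 10 ZNF genes linked to RNA, ribosomes or the spindle, 3 fell in control (ZNF346, ZNF598 and ZNF638), and the median of the list was -0.24. Beside this list and the next 2, the shares called were 15.7% of the ZNF genes, 8.9% of the genes of the level limit and 4.3% of all tested genes. The lists were chosen with earlier results of these data known, so their counts are a description. Of 23 ZNF transcription factors without KRAB, ZNF644 and ZNF318 (-0.49, SE 0.12) fell and ZNF410 rose. ZNF410, an activator of CHD4, is below the level limit at a mean of 2.81 CPM and rose by 1.42 (SE 0.29, adjusted p = 0.00345), while CHD4 changed by 0.15 (SE 0.19). Of 9 genes known to repress retroelements or imprinted loci, only ZNF263 was called. No tested haematopoietic, epithelial, mesenchymal or neural marker was called in control, where the medians of these lists were 1.14, 0.17, -0.07 and -0.23. The haematopoietic markers were near 0 CPM, and PTPRC, for example, stood at 2.08 (SE 0.87, adjusted p = 0.235).

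Both SUGP1 mutants responded to PB, with lists that overlapped that of control. In SUGP1 E554K 34 ZNF genes were called, 18 higher and 16 lower, against 4.32% of all tested genes and 9.43% of those of that level (1.87% higher, 7.56% lower). In SUGP1 G603N 28 were called, 11 higher and 17 lower, against 4.08% and 7.95% (1% higher, 6.94% lower). These comparisons contrast other libraries than that in control, but all 3 tests use the same spread of each gene, pooled over all 30 libraries. The lists are thus not wholly independent. Of the 17 genes that rose in control, 9 also rose in SUGP1 E554K (52.9% of the control list, 50% of the other) and 7 in SUGP1 G603N (41.2% and 63.6%). Of the 24 that fell, 13 (54.2% and 81.2%) and 15 (62.5% and 88.2%) did so. No gene was called in opposite directions in any of the 3.

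Called in the same direction in all 3 genotypes were 5 rising and 11 falling genes. The rising ones, ZNF695, ZNF343, ZNF324, ZNF263 and ZNF7, all carry a KRAB box. Of the falling ones, ZNF587B, ZNF382, ZNF595 and ZNF81 are KRAB genes, ZNF518A, ZNF346, ZNF362, ZNF638, ZNF623 and ZNF397 are not, and ZNF252P is a pseudogene. ZNF587B fell furthest in SUGP1 E554K, from 28.0, 29.5 and 17.98 CPM to 5.51, 6.26 and 5.81 CPM (-2.10, SE 0.23, adjusted p = 2.58e-06). In SUGP1 G603N it went from 27.0, 24.2 and 21.8 CPM to 5.73, 10.2 and 11.8 CPM (-1.40, SE 0.23). The difference between SUGP1 E554K and control was -0.79 (SE 0.32) and did not pass (adjusted p = 1.00).

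ZNF343 rose by 0.86 (SE 0.15) in SUGP1 E554K and by 0.91 (SE 0.15) in SUGP1 G603N, where its DMSO libraries had 19.8, 21.5 and 18.99 CPM and its PB libraries 36.1, 35.6 and 41.5 CPM. ZNF263 rose by 0.70 and 0.63 (SE 0.13 in both) and ZNF695 by 1.09 and 0.78 (SE 0.21 in both). Some genes were called in a SUGP1 mutant and not in control, though their control values had the same sign. ZNF77, for example, rose by 0.92 (SE 0.20, adjusted p = 0.00491) in SUGP1 E554K and stood at 0.48 (SE 0.20, adjusted p = 0.214) in control, and ZNF510 rose by 0.89 and stood at 0.54. ZNF274, which brings SETDB1 to the ends of ZNF genes, fell by 0.67 (SE 0.19) in SUGP1 E554K and stood at -0.53 (SE 0.19) in control.

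By class, 15 KRAB genes rose and 8 fell in SUGP1 E554K, and 3 and 7 of the other coding genes. In SUGP1 G603N the counts were 8 and 5 for KRAB genes and 3 and 11 for the others. The calls in the mutants rest on a spread pooled over all 30 libraries: when libraries of other genotypes were kept out of the fit, 1 remained in SUGP1 E554K and 0 in SUGP1 G603N. With lines as blocks the counts were 69 (27 higher, 42 lower) and 63 (24 and 39), beside 11.3% and 9.25% of all tested genes. Among KRAB genes 18 then rose and 17 fell in SUGP1 E554K, and 16 rose and 18 fell in SUGP1 G603N, where the balance turned. For the other coding genes the counts with blocks were 9 and 23, and 8 and 18. Without the third SUGP1 lines the counts over the ZNF genes were 33 (17 and 16) and 34 (8 and 26). Among KRAB genes of SUGP1 G603N the balance turned there as well, with 6 higher and 13 lower, against 15 and 7 in SUGP1 E554K. For the alternatives of this paragraph other than the blocks, no share of all tested genes is given here. Their counts do not show a shift particular to ZNF genes. With DESeq2 size factors SUGP1 G603N had 14 higher and 12 lower. Leaving out DMSO line 1 or 2 or PB line 2 or 3 of SUGP1 E554K left 14, 19, 19 and 20 calls, and leaving out DMSO line 1 or 2 or PB line 3 of SUGP1 G603N left 15, 12 and 12.

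In the mutants of SF3b subunits no change with PB passed the test. No ZNF gene was called with PB in PHF5A 2xTL or in SF3B1 T1080I by edgeR or by DESeq2. By edgeR 0.00318% of all tested genes were called in each. Of the 261 ZNF genes, 1 and 4 had an unadjusted p under 0.05, beside 44 and 51 of the 9853 genes of the same level. In PHF5A 2xTL, ZNF587B was at 15.6, 19.5 and 18.6 CPM in DMSO and 16.1, 15.01 and 13.2 CPM in PB, and ZNF346 at 31.8, 29.1 and 26.5 CPM and 28.6, 27.5 and 29.6 CPM. The 2 ranges overlapped for both genes. In SF3B1 T1080I, ZNF346 was at 27.0, 28.1 and 28.8 CPM in DMSO and 24.3, 29.5 and 30.1 CPM in PB, again with overlap. ZNF587B was the exception, with 22.3, 24.2 and 20.01 CPM in DMSO and 16.0, 17.2 and 13.7 CPM in PB, ranges that did not meet, at -0.50 (SE 0.22) and short of the threshold (adjusted p = 1).

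Over the 17 genes that rose in control, the median log2 fold change was 0.01 in PHF5A 2xTL and 0.14 in SF3B1 T1080I, 0.47 in SUGP1 E554K and 0.45 in SUGP1 G603N. Of the 17, 11 were above 0 in PHF5A 2xTL and 17 in SF3B1 T1080I, beside 99 and 180 of all 261 ZNF genes, where ZNF695 had the highest value (0.49, SE 0.21). Over the 24 that fell, the medians were -0.11, -0.05, -0.53 and -0.61, and 22 were below 0 in PHF5A 2xTL and 20 in SF3B1 T1080I, beside 162 and 81 of all 261. The median SE of a single gene in these comparisons was 0.17, so a change as small as the SF3B1 T1080I medians could not be detected for 1 gene.

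**Figure D3:**
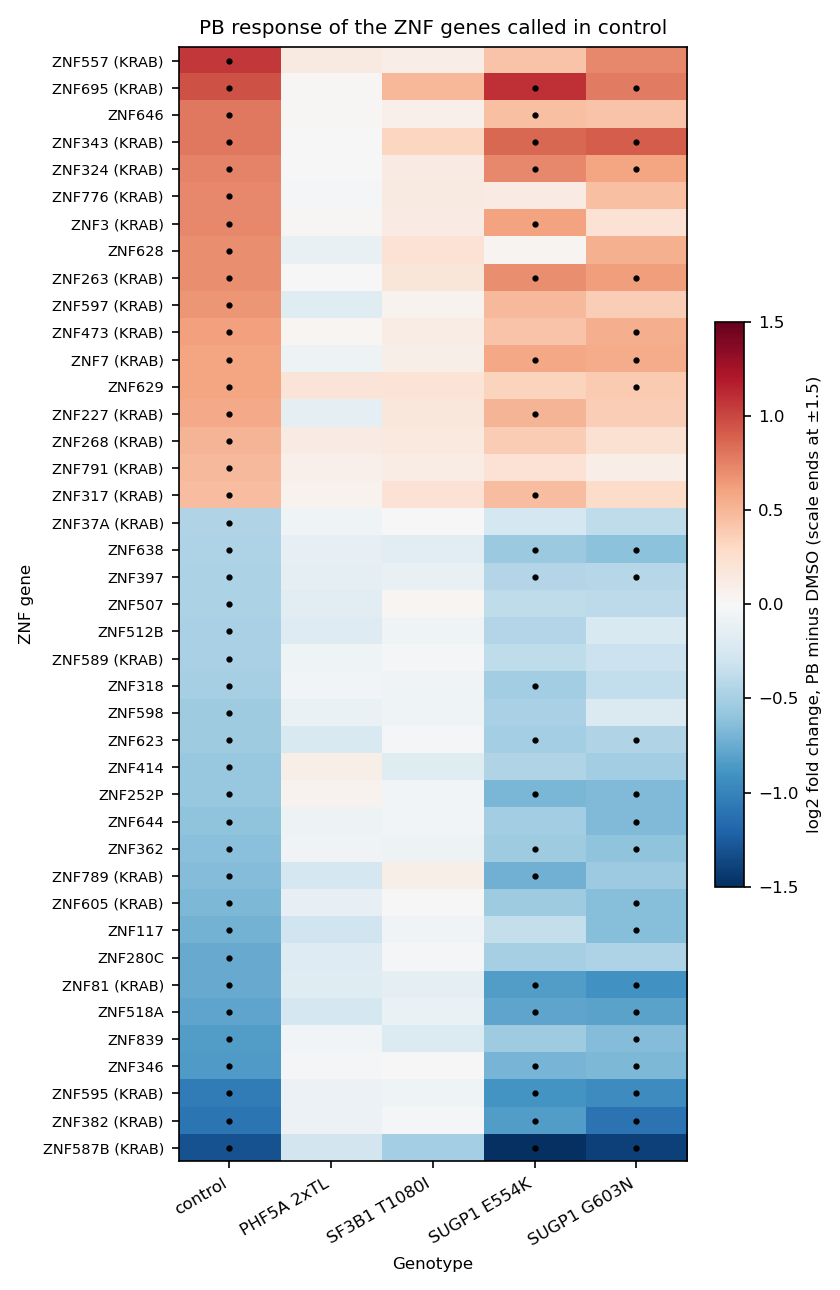
Log2 fold change of PB against DMSO for the 41 ZNF genes called in control (rows) in the 5 genotypes (columns), red higher and blue lower, with a dot where the gene was called and KRAB genes marked in the row names. The columns of PHF5A 2xTL and SF3B1 T1080I hold no dot, and the SUGP1 columns hold 22 each in the same directions as control.

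The difference in response from control was tested directly, with the same control libraries in each of the 4 tests. In the fit without blocks no ZNF gene passed for PHF5A 2xTL (0.26% of all tested genes did) or for SF3B1 T1080I (0.286%). Unadjusted p was under 0.05 in 39 and 44 of the 261 ZNF genes, beside 944 and 1055 of the 9853 genes of the same level. DESeq2 called 13 and 2 ZNF genes, with no share of all tested genes given here. The lowest adjusted p was that of ZNF646 for PHF5A 2xTL (-0.77, SE 0.18, adjusted p = 0.0652) and that of ZNF346 for SF3B1 T1080I (0.85, SE 0.20, adjusted p = 0.0663). Over the 17 genes that rose and the 24 that fell in control, the medians of the difference were -0.71 and 0.53 for PHF5A 2xTL and -0.50 and 0.55 for SF3B1 T1080I. These genes were chosen on the control values that enter the difference, so its direction is no separate evidence.

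With lines as blocks, 17 ZNF genes passed for PHF5A 2xTL and 13 for SF3B1 T1080I, where 1.57% and 1.67% of all tested genes passed. In control the blocks were replicate numbers, a pairing that is uncertain there. For PHF5A 2xTL these were 9 genes that rose less in the mutant than in control (ZNF695, ZNF597, ZNF343, ZNF646, ZNF324, ZNF227, ZNF3, ZNF263 and ZNF7) and 8 that fell less, led by ZNF382 (a difference of 1.02, adjusted p = 0.00580) and ZNF587B (1.01, adjusted p = 0.0316). In the fit without blocks, ZNF382 stood at -0.09 (SE 0.24) and ZNF587B at -0.27 (SE 0.22) in PHF5A 2xTL. For SF3B1 T1080I, ZNF557 (a difference of -0.99) and ZNF646 (-0.72) rose less than in control. The other 11 had a positive difference, led by ZNF382 (1.08, adjusted p = 0.00288), ZNF595 (0.98) and ZNF346 (0.83), which fell in control and stood at -0.02, -0.06 and, for ZNF346, -0.0005 in the mutant. For SUGP1 E554K and SUGP1 G603N no ZNF gene passed with or without blocks or by DESeq2. In the fit without blocks 0% of all tested genes passed. There 6 and 5 of the 261 ZNF genes had an unadjusted p under 0.05, beside 63 and 48 of the 9853 genes of the same level. A difference that does not pass does not show that the responses are alike.

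Without PB few of these genes were called between a mutant and control, although single lines differed widely in some of them, as described below. Against control in DMSO, no ZNF gene was called in PHF5A 2xTL (0.00953% of all tested genes were), SF3B1 T1080I (0%) or SUGP1 E554K (0%). Of the 261 ZNF genes, 36, 22 and 12 had an unadjusted p under 0.05, beside 556, 500 and 332 of the 9853 genes of that level. DESeq2 called 0, 2 and 0 ZNF genes, with no share of all tested genes given here. The 4 comparisons share the control libraries. The median KRAB gene stood at 0.20 in PHF5A 2xTL, with 137 of 153 above 0, and at 0.12 in SF3B1 T1080I, with 122 above 0, beside 0.03 and 0.02 over the genes of that level. Of those 9853 genes, 5617 and 5505 were above 0. The other coding ZNF genes had medians of 0.055 and 0.095 in these 2 mutants, with 68 and 71 of 104 above 0. In SUGP1 E554K and SUGP1 G603N the medians were -0.002 and 0.064 for KRAB genes and 0.025 and 0.091 for the others. Genes measured in the same libraries are not replicates of a shift, which was not tested. The genes of lowest p were ZNF331 (0.50, SE 0.15, adjusted p = 0.730), ZNF263 and ZNF611 in PHF5A 2xTL and ZNF117 (0.78, SE 0.18, adjusted p = 0.242), ZNF395 and ZNF41 in SF3B1 T1080I. In SUGP1 E554K they were ZNF628 (0.57, SE 0.18, adjusted p = 1), ZNF197 and ZNF436.

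In SUGP1 G603N 1 ZNF gene was called, where 0.00635% of all tested genes were. ZNF3 had 90.8, 95.3 and 73.7 CPM in the mutant lines against 47.9, 46.4 and 49.9 CPM in control, a log2 difference of 0.85 (SE 0.13, adjusted p = 0.0119). All mutant lines were above all control replicates. The call was lost when DMSO line 1 or 2 or any control DMSO replicate was left out, and with only these groups in the fit. With PB the same lines had 89.0, 100 and 112 CPM, a rise of 0.22 (SE 0.13) that did not pass (adjusted p = 0.449). In SUGP1 E554K, ZNF3 rose from 55.7, 58.1 and 64.5 CPM to 69.7, 96.7 and 105 CPM (0.60, SE 0.13).

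Beside these responses, some mutant lines had far less RNA of 1 or several KRAB genes than the other lines, with DMSO and PB alike. The measure was chosen after the values were seen: both libraries of a line under 0.25 of the gene's median over the 30 libraries. It held for 6 ZNF genes in 11 pairs of gene and line, which is 2.30% of the set against 0.751% (74 genes) of the 9853 tested genes of that level. All 6 are KRAB genes on chromosome 19, none of the pairs was in control, and no ZNF gene was above 4 times its median in the same way. No test was run on this measure, and the counts are a description.

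ZNF100 (chr19:21722766-21767628) was the most widespread. Its median was 25.3 CPM, and it had 4.23, 0.261 and 0.142 CPM in the 3 SUGP1 G603N lines in DMSO and 2.45, 0.940 and 0.216 CPM in PB. In SUGP1 E554K line 3 it had 0.664 and 1.69 CPM, while lines 1 and 2 had 28.4 and 25.8 CPM in DMSO. Every other library lay at 19.9 CPM or more. For SUGP1 G603N against control in DMSO the fitted log2 difference was -4.03 (SE 0.95), and it did not pass (adjusted p = 0.565) although the groups were far apart. It passed when genes were not filtered on low counts (-4.08, adjusted p = 0.0227), without DMSO line 1 (-7.05, adjusted p = 0.0469) and without the third SUGP1 lines (-3.54, adjusted p = 0.00366). Over all alternatives the edgeR adjusted p ran from 0.00366 to 1.

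ZNF91 (chr19:23304991-23395560), a gene of 31 fingers that silences SVA and L1 retroelements, had 10.4 and 8.58 CPM in SUGP1 E554K line 3 and 1.72 and 0.793 CPM in SUGP1 G603N line 3, against a median of 50.6 CPM. No other library was below 29.2 CPM. ZNF431 (chr19:21142024-21196053) had 3.97 and 3.40 CPM in SUGP1 E554K line 2 and 0.649 and 0.264 CPM in SUGP1 G603N line 3, against a median of 28.4 CPM and at least 22.0 CPM elsewhere. The losses of these 2 genes thus fell in different lines of SUGP1 E554K and in the same line of SUGP1 G603N. ZNF675 had 3.83 and 4.19 CPM and ZNF28 2.73 and 1.66 CPM in SUGP1 E554K line 3. ZNF558, which represses SPATA18, had 1.27 and 1.26 CPM in PHF5A 2xTL line 2 against a median of 20.02 CPM, the only such case outside the SUGP1 mutants.

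**Figure D4:**
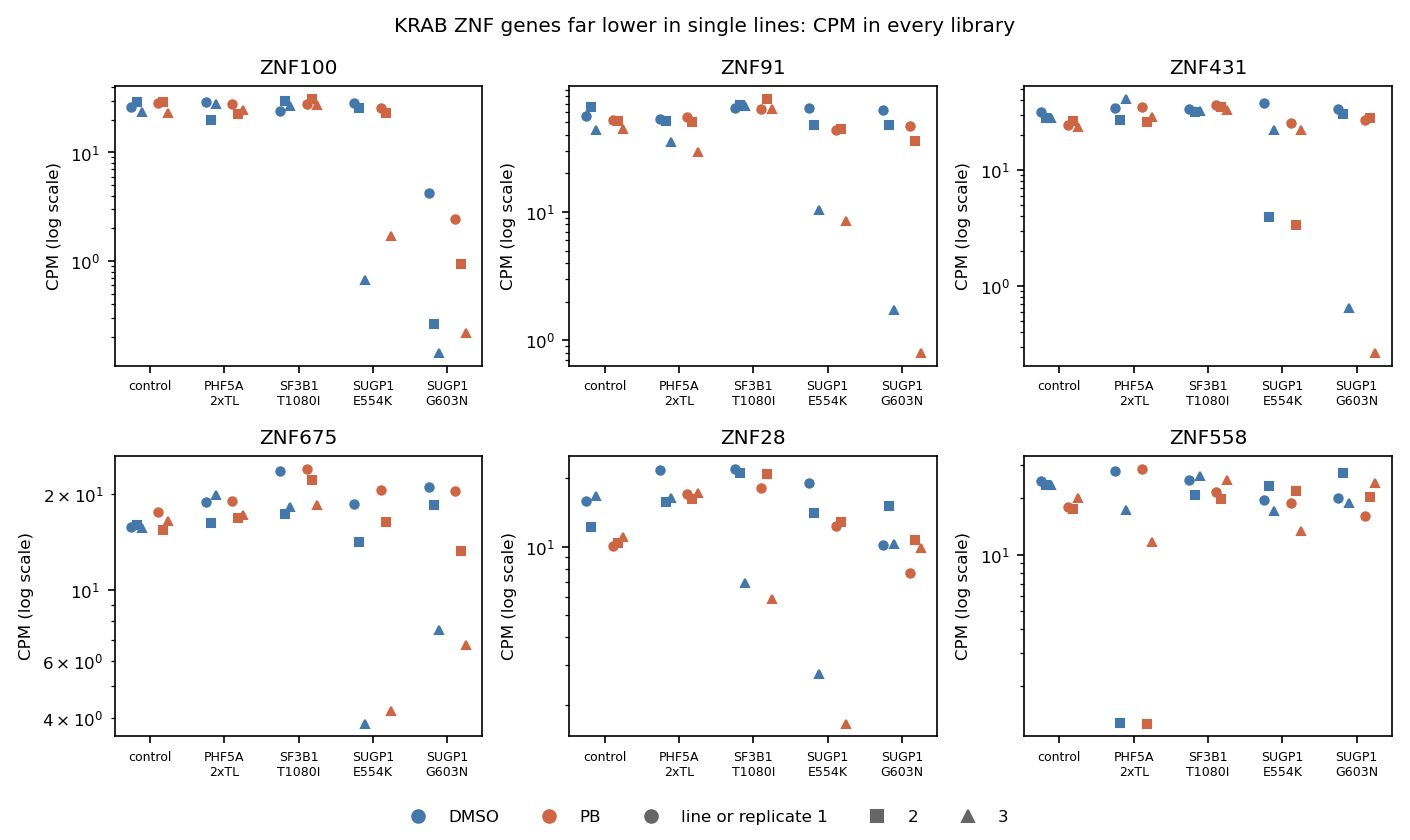
CPM on a log axis of the 6 KRAB ZNF genes with a line far below the rest, in every library by genotype, with DMSO in blue, PB in orange and the marker shape giving the line or replicate number. The low points come in pairs of a blue and an orange marker of the same shape, as for ZNF558 in PHF5A 2xTL line 2 at 1.27 and 1.26 CPM.

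Of the 6 genes, 4 lie within a stretch of chromosome 19 from 19 to 25 Mb that holds 9 of the expressed ZNF genes and 12 other genes of that level, SUGP1 among the latter. From SUGP1 (19276018 to 19320844) the gap to ZNF431 is 1.82 Mb, to ZNF100 2.40 Mb, to ZNF91 3.98 Mb and to ZNF675 4.20 Mb. In SUGP1 G603N line 3, the mean log2 level of 6 of the 9 ZNF genes was more than 1 below the gene's median, and the median of the 9 was -1.27. ZNF708 (-1.14), ZNF738 (-1.71) and ZNF675 (-1.27) were lower there to a lesser degree, and ZNF101 (-0.07) and ZNF724 (-0.23) were close to their medians. Among the 12 other genes only LINC01224, which lies beside ZNF91, was low in that line (-5.96). Apart from LINC01224 and a noncoding gene that overlaps ZNF254 (0.09 in that line), these 12 end by 19663693, before the first of the 9 ZNF genes. They thus say little of genes that lie among the ZNF genes. LINC01224 was also low in SUGP1 E554K line 3 (-2.92), where ZNF100, ZNF91 and ZNF675 were low and the median of the 9 ZNF genes was -0.60. In PHF5A 2xTL line 3 LINC01224 was at -1.51 and ZNF91 at -0.66. SUGP1 was 0.79 to 0.85 above its median in all 3 SUGP1 G603N lines. Line 3 of SUGP1 E554K, which holds 4 of the 11 low pairs, is also the line of highest mitochondrial share, and its part in the result was not tested. That share was 11.2% and 12.9% in SUGP1 G603N line 3.

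**Figure D5:**
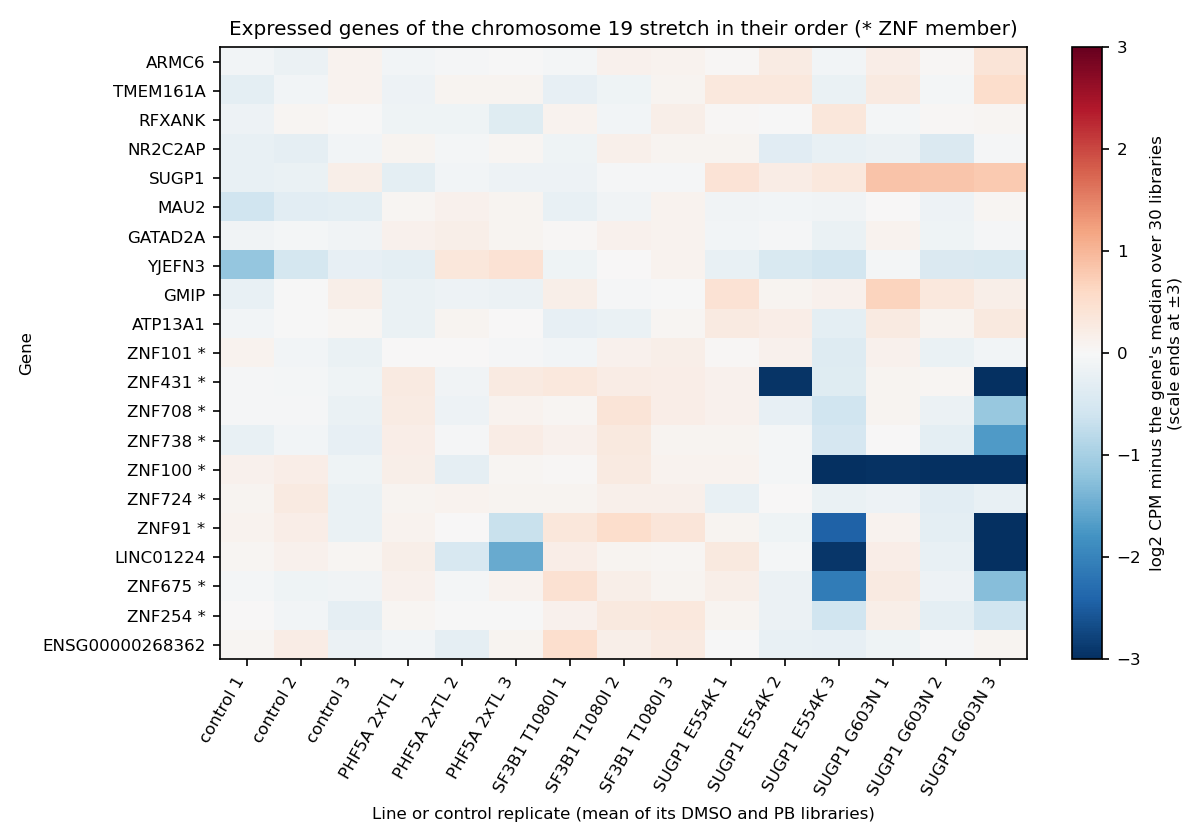
Mean log2 CPM of each expressed gene of the chromosome 19 stretch, minus the gene's median over 30 libraries, for each line or control replicate (columns), with genes in chromosome order and ZNF genes marked by an asterisk. Dark blue marks ZNF100 in all 3 SUGP1 G603N lines and in SUGP1 E554K line 3. It also marks ZNF431 in SUGP1 E554K line 2 (-2.94) and LINC01224 in SUGP1 E554K line 3 (-2.92). In SUGP1 G603N line 3 it marks ZNF431, ZNF91 and LINC01224 together.

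The promoters of the 4 genes of this stretch are close relatives, and they are shown because each gene was low in line 3 of a SUGP1 mutant. The sequences are the part of the RefSeq promoter window (GRCh38.p14) that lies upstream of the GENCODE start, on the strand of the gene, and the capitals mark CG dinucleotides, the sites of DNA methylation.
ZNF431: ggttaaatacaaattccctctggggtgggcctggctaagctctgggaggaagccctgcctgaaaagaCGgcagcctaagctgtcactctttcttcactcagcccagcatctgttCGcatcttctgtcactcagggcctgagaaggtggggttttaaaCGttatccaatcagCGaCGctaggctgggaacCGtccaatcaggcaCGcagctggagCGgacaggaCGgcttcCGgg
ZNF91: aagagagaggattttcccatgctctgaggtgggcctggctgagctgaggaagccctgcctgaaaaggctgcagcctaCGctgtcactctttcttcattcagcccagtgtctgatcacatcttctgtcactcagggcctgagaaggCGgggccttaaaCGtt
ZNF100: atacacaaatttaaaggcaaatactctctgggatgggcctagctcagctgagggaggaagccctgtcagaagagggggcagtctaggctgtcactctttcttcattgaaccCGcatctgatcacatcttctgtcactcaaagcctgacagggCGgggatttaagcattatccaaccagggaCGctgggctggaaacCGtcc
ZNF675: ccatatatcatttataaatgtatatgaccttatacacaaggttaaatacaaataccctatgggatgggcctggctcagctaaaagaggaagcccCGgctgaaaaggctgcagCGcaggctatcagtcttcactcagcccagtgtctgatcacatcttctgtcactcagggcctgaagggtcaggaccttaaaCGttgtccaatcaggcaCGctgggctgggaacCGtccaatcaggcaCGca
They lie at chr19:21141790-21142023 (ZNF431, plus strand), chr19:23395561-23395721 (ZNF91, minus), chr19:21767629-21767829 (ZNF100, minus) and chr19:23687221-23687462 (ZNF675, minus). Aligned pairs were identical at 80.6% to 89.5% of the aligned bases. The longest run of letters common to all 4, CATCTTCTGTCACTCA (16 bases, searched on both strands), occurs in 13 of 35116 promoter windows of the table (0.037%), all of them of ZNF genes, and in 4 of the 223 windows that matched a gene of the set, which are these 4. The run was derived from these promoters after their values were seen. CG dinucleotides were counted over 250 bases of each RefSeq window, which reach past the GENCODE start and so beyond the printed letters. By that count the 4 promoters hold 11, 7, 8 and 6 in the order printed. The medians were 11 over all windows, 18 over the ZNF genes and 16 over the KRAB genes.

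Line differences short of this measure were seen elsewhere too. ZNF518B, chosen after its values were seen because it had the largest SD within SF3B1 T1080I, had 3.92 CPM with DMSO and 4.46 CPM with PB in line 3 of that genotype. Lines 1 and 2 had at least 15.7 CPM in both treatments. In control, where all libraries come from 1 line, the largest SD of a ZNF gene's log2 CPM was 0.64 in DMSO (ZNF805) and 0.48 in PB (ZNF133), against 1.15 to 3.75 in the mutant groups.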

How the data were processed

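Poly(A)-selected RNA was sequenced as paired reads of 150 bases from libraries of a CORALL Total RNA kit, per the labels' protocols. The submitters' processing notes name UMI-tools, STAR, SAMtools 1.10 and hg38. The authors deposited 1 table of estimated counts per gene and library, per the values of the table itself, 65.5% of which are not whole (tolerance 1e-09). Counting program, annotation and strand mode: not given in the sources used here. Gene symbols were matched for 61369 of 61487 identifiers.

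Estimated counts were rounded, genes were filtered by group with filterByExpr, libraries were scaled by TMM, and 13 contrasts were fitted over all 30 libraries with the quasi-likelihood test of edgeR 4.0.16 (R 4.3.3, limma 3.58.1). Adjusted p-values are Benjamini-Hochberg over all 31495 tested genes. DESeq2 1.42.0, its size factors, no filter, only the groups compared, a replicate block, a higher level limit and leaving out libraries were alternatives, and the fit was tested on simulated data. The members and gene lists were chosen with earlier results of these data known. Genes were named as the edited genes, up to 10 called genes per direction with the largest fold change and groups that do not overlap (5, or the 3 of lowest p where none was called, in contrasts other than PB in control and the SUGP1 mutants), the 5 of highest level, those next to the level limit, called list members, up to 5 per direction shared by control and both SUGP1 mutants, and the 3 most like the gene with the largest fall. Others, such as ZNF473, ZNF274, ZNF587, ZNF417, ZNF518B and the genes low in single lines, were named after their values were seen.

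Mutant libraries with the same number are of 1 clone. Their deviations from the group means correlated at 0.41 to 0.86 over 9853 genes, so numbers pair the mutant libraries. In control the correlations were 0.20 to 0.52. Replicate 2, at 0.20, was not most like its own number, so the pairing by number is uncertain in control. KRAB boxes were found with a profile built from 128 stretches that match a KRAB pattern (E-value under 1e-05), and stretches of 150 bases were compared between GENCODE transcripts. Promoters come from a RefSeq table, in which 223 of the 261 genes were matched. A protein table and the STAR version were not used here.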

Additional observations from a re-analysis of the deposited data

How the results depend on the processing

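Every named log2 fold change kept its direction under each alternative, though with only the compared groups in the fit 40 of 61 lost their call. The replicate block pairs libraries of the same number, which are of 1 line in the mutants and uncertainly paired in control. With it the ZNF genes called with PB numbered 67 in control, 69 in SUGP1 E554K and 63 in SUGP1 G603N. The differences from control numbered 17 for PHF5A 2xTL and 13 for SF3B1 T1080I. The block changed the count of no other comparison by more than 1.5 times. Without the low-count filter SUGP1 E554K had 19 calls and SUGP1 G603N 16, and at a level limit of 20 each had 18. With only the compared groups in the fit these fell to 1 and 0, the differences stood at 4 for PHF5A 2xTL and 3 for SF3B1 T1080I, and SUGP1 G603N against control in DMSO at 0. By DESeq2 the differences were 13 and 2, and SF3B1 T1080I and SUGP1 G603N against control in DMSO had 2 each. SUGP1 G603N against control in DMSO had 2 without the filter and 4 without the third SUGP1 lines. Leaving out 1 library gave 19 to 29 calls with PB in control, 14 to 34 in SUGP1 E554K and 12 to 33 in SUGP1 G603N. It gave 0 to 1 for SF3B1 T1080I and 0 to 2 for SUGP1 G603N against control in DMSO, 0 to 1 for the differences of PHF5A 2xTL and SF3B1 T1080I (1 without control DMSO replicate 1), and 0 in the other comparisons. The cause of these shifts was not tested. No share of all tested genes stands beside the counts of this section, so they do not show a shift particular to ZNF genes. The counts with 3 libraries a group limit what a single gene can show: the median SE was 0.17.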
